A study of Mus musculus with 6 samples.

Results

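Apolipoprotein D (Apod), lipocalin 2 (Lcn2), the metallothioneins Mt1 and Mt2, and the acute-phase genes Saa3, Orm1, Hp, Cp and Serpina3n were followed in heart ventricle tissue of mice with and without the nuclease gene Trex1. They are 9 of the 18193 genes that have a probe set of their own on the array. A total of 18 of the 45037 probe sets that are not controls carry one of these 9 symbols, and all 18 are accounted for below. The genes were chosen for their values in the same Trex1 KO against Trex1 WT contrast, so their differences are given as a description and without a test.

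The 6 arrays, from 6 animals, form 2 groups of 3. The first group is Trex1 KO on a Rag2 KO background and the second is Trex1 WT on the same Rag2 KO background. The mice form 3 littermate pairs, called A, B and C, each with 1 Trex1 KO and 1 Trex1 WT heart. Every animal, controls included, lacks Rag2, which is needed to assemble antigen receptors, so mature T and B cells are missing from both groups. The labels used here give no age, sex, promoter or allele. Total RNA of whole ventricle was labelled, so in these bulk samples a change in the number of cells of a type and a change in RNA per cell cannot be told apart.

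Trex1 encodes a DNA exonuclease that clears DNA from the cytosol, and its loss is known to set off an interferon response and an inflamed heart in mice. Acute-phase genes encode secreted proteins, made mostly by the liver, whose synthesis changes during inflammation through IL-6, IL-1 and glucocorticoids. Some of them are also switched on locally in inflamed tissue. Metallothioneins are small cysteine-rich proteins that bind zinc and copper and respond to metals, glucocorticoids and cytokines. Lipocalins, among them Apod, Lcn2 and Orm1, carry small hydrophobic ligands in a shared barrel fold.

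The Trex1 probe set read 9.45, 20.6 and 34.2 in the Trex1 KO hearts of pairs A, B and C, against 714, 340 and 887 in the Trex1 WT hearts. All 8 cardiomyocyte markers, such as Myh6 and Tnnt2, lay above the brightest of the 27 bacterial control probe sets, 69.8, on all 6 arrays. The ratio of the 3' to the 5' control probe set of Actb, a measure of RNA integrity, was 1.60 to 1.68 in Trex1 KO hearts and 1.80 to 2.29 in Trex1 WT hearts. These ranges did not overlap (two-sided exact permutation p = 0.1, the smallest p that 3 against 3 allows). The 18S ribosomal RNA control read 1284, 865 and 588 in Trex1 KO hearts of pairs A, B and C, against 6815, 6226 and 503 in Trex1 WT hearts, so the genotypes stood far apart in pairs A and B and not in pair C (two-sided exact permutation p = 0.4). The part of RNA quality in the differences below was not tested beyond a fit with the Actb ratio. In pair C the X-inactivation transcript Xist read 7569 in the Trex1 KO heart and 6747 in the Trex1 WT heart, against at most 119 on the other 4 arrays, so pair C also differs from the others in its sex-linked transcripts.

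Promoter windows were available for 7 of the 9 genes, and 3 of them are shown. Apod and Mt2 are shown because they had the largest differences among the probe sets that represent each gene and lay clear of the bacterial controls on every array, and Mt1 as the chromosomal neighbour of Mt2. The windows run from 250 bases before to 50 bases after the annotated start (RefSeq, GRCm38.p6), 5′ to 3′. They lie at chr16:31314759-31315058 on the minus strand for Apod, chr8:94178839-94179138 on the plus strand for Mt1, and chr8:94172368-94172667 on the plus strand for Mt2. Capitals mark GAAANGAAA in Apod and the core of the metal response element, TGCACNC or TGCGCNC on either strand, in Mt1 and Mt2.
Apod: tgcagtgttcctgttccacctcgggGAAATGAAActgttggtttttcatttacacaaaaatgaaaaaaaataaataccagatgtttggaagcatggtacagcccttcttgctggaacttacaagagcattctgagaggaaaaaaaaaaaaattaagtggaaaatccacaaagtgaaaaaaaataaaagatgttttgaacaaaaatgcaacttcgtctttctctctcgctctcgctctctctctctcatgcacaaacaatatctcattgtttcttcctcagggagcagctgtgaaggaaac
Mt1: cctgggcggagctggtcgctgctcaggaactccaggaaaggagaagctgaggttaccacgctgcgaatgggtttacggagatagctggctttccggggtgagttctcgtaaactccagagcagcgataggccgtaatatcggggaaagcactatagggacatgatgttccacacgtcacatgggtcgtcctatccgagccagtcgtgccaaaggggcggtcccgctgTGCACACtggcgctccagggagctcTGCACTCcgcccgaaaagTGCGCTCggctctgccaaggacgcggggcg
Mt2: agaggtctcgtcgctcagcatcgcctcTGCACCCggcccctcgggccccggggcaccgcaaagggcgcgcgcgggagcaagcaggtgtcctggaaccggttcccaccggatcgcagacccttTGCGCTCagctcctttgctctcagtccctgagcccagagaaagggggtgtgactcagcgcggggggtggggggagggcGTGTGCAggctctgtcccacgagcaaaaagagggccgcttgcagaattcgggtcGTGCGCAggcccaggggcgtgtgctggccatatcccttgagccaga

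The metal response element core is the recognition core of MTF1, the zinc-sensing transcription factor. It was found 3 times in the Mt1 window, at -23, 3 and 21 relative to the start, and 4 times in the Mt2 window, at -223, -128, -50 and 5. At least 1 match was present in 25.7% of 32841 mouse promoter windows of the same length, and at least 3 matches in 1.97%. The interferon-stimulated response element core, searched on both strands as GAAA, any 2 bases and GAAA, was found once among these genes, at -125 in the window of Saa3, and in 3.44% of all windows. The Apod window had no match to it. The shorter-spaced GAAANGAAA, chosen after the Apod letters had been read, occurs there once at -225 and in 3.17% of all windows. Searched as TTGCNNAA on both strands, the core bound by C/EBP factors, which act on many acute-phase promoters, was found once each in windows of Lcn2, Mt2, Saa3 and Cp and in 10.8% of all windows. These matches are descriptions of the letters.

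Of the 9 genes, 8 had a higher signal in the Trex1 KO heart than in its Trex1 WT littermate in all 3 pairs, taking the brightest probe set of each gene. The exception was Serpina3n, which was higher in pair B and lower in pairs A and C. Over the 8 genes bright enough to test, the log2 difference of the brightest probe set had a median of 0.33, against -0.01 over all 27022 tested probe sets. The 5th to 95th percentile of all tested probe sets was -0.40 to 0.53, and Apod, Mt2 and Hp lay above it. Of the 15 tested member probe sets 8 belong to Cp alone, so the counts that follow are not of separate genes. Across all 15, 12 were higher in Trex1 KO in all 3 pairs, which was so for 14.2% of all tested probe sets. Trex1 KO and Trex1 WT values did not overlap, with Trex1 KO above, for 6 of the 15, against 5.57% of all tested probe sets. The reverse orders, lower in all 3 pairs and Trex1 KO wholly below, held for 0 of the 15 and for 15.3% and 4.99% of all tested probe sets.

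At an adjusted p of 0.05, 1 of the 15 was called higher, the Apod probe set, and 0 were called lower, beside 0.218% and 0.0259% of all tested probe sets. With the littermate pair as a block, 2 were called higher, Apod and Mt2, and 0 lower, beside 0.389% and 0.0592% of all tested probe sets. The genes were picked from this contrast, so nothing is read from these counts. Here and below, differences are Trex1 KO minus Trex1 WT in log2(signal + 16), and fold values come from the same scale, which understates the change of dim genes. Standard errors come from the limma fit with genotype alone, which leaves out the pairing and so includes the spread between pairs.

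**Figure D1:**
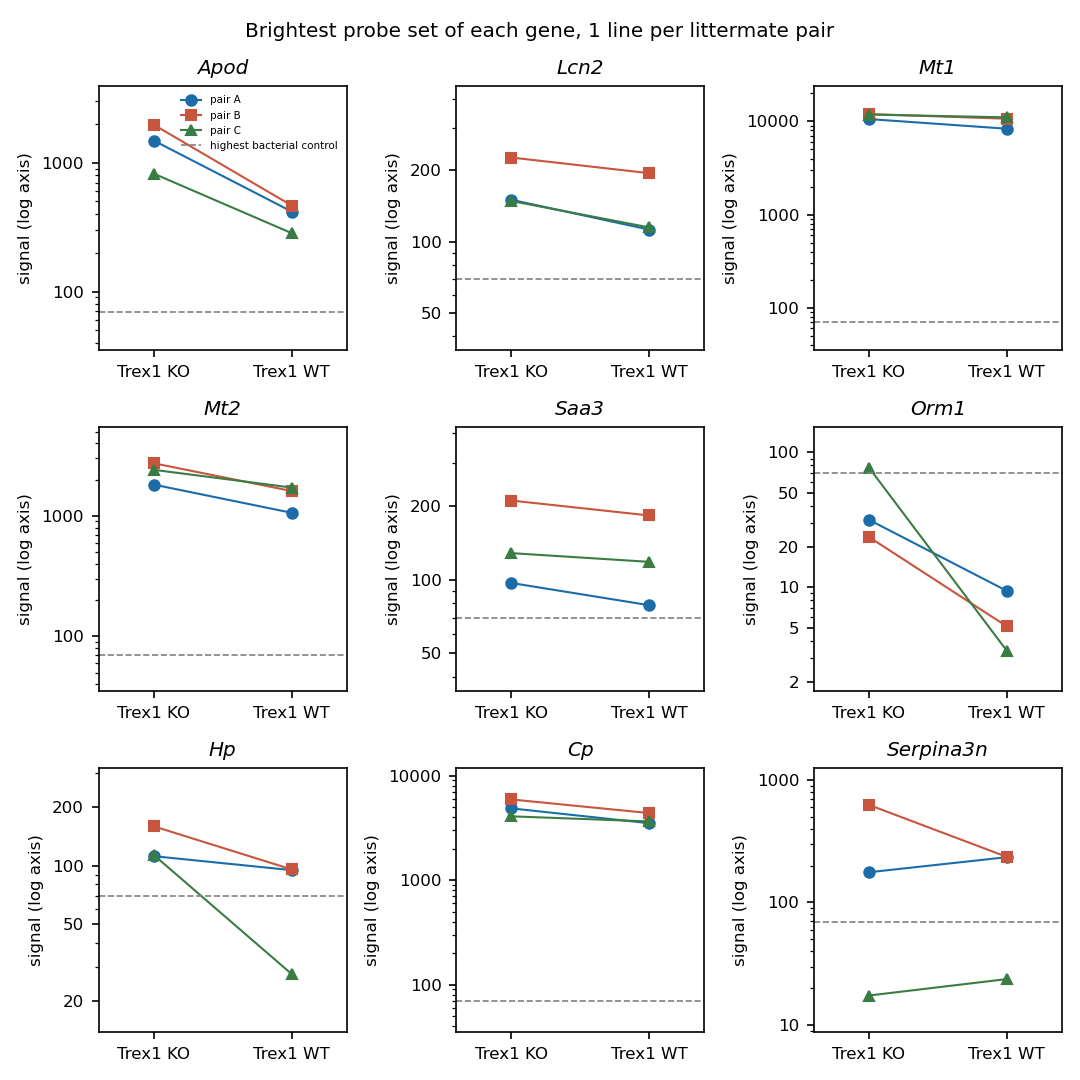
Signal (log axis) of the brightest probe set of each of the 9 genes in Trex1 KO and Trex1 WT hearts, with 1 line per littermate pair and a dashed line at the brightest bacterial control (69.8). All lines fall towards Trex1 WT except those of Serpina3n in pairs A and C, and 5 of the 6 Orm1 values lie under the dashed line.

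Among the lipocalins, Apod, a lipid-binding glycoprotein made in nervous tissue and by fibroblasts and known for stress-induced expression, differed most. Its brighter probe set read 1484, 1969 and 822 in the Trex1 KO hearts of pairs A, B and C, against 417, 465 and 284 in the Trex1 WT hearts. The lowest Trex1 KO heart was thus above the highest Trex1 WT heart. Apod averaged 1425 ± 576 in Trex1 KO hearts and 389 ± 93.9 in Trex1 WT hearts (SD, n = 3 each), a log2 difference of 1.77 with a standard error of 0.29, or 3.42-fold. By pair the difference was 1.79 (A), 2.05 (B) and 1.48 (C), and 99.9% of all tested probe sets had a smaller one. In both genotypes the heart of pair C was the lowest and that of pair B the highest. The Apod call was lost under 11 of 17 alternatives. These were leaving out the Trex1 KO heart of pair A or B, the Trex1 WT heart of pair A or C (differences of 1.70, 1.50, 1.84 and 1.57) or the whole of pair A or B (1.76 and 1.64), a pseudocount of 1, no filter, no trend, quantile normalization, and the Actb ratio in the fit, which gave 2.19.

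A second Apod probe set was too dim to be tested. It read 110, 92.0 and 38.7 in Trex1 KO hearts, against 6.09, 6.20 and 75.0 in Trex1 WT hearts. In pair C it ran the other way from the brighter probe set, with the Trex1 WT heart above its littermate.

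Lcn2, also called neutrophil gelatinase-associated lipocalin, binds bacterial siderophores and is made by neutrophils and by inflamed epithelium. Its signals were 150, 226 and 149 in Trex1 KO hearts, against 112, 194 and 115 in Trex1 WT hearts. The pair B Trex1 WT heart exceeded the Trex1 KO hearts of the other pairs, so the groups overlapped, although each Trex1 KO heart was above its own littermate, by 0.37, 0.20 and 0.33. The log2 difference was 0.30 with a standard error of 0.27.

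Neutrophil transcripts differed between these arrays as well. The summed signal of the 11 measured neutrophil markers was 750 to 1932 in Trex1 KO hearts and 821 to 942 in Trex1 WT hearts. S100a8, a subunit of the neutrophil protein calprotectin, read 193, 678 and 603 in Trex1 KO hearts and 295, 242 and 199 in Trex1 WT hearts. S100a9, the other subunit, read 175, 736 and 412 in Trex1 KO hearts and 230, 221 and 149 in Trex1 WT hearts. The granule genes did not run one way. Mpo read 82.7, 43.98 and 70.2 in Trex1 KO hearts and 21.5, 12.2 and 12.6 in Trex1 WT hearts. Elane, neutrophil elastase, read 7.80, 21.0 and 22.0 in Trex1 KO hearts and 51.4, 88.0 and 86.7 in Trex1 WT hearts. Both were too dim to be tested and lay near background. Mpo exceeded the brightest bacterial control only in the Trex1 KO hearts of pairs A and C. Elane did so only in the Trex1 WT hearts of pairs B and C. Ngp had a log2 difference of -0.59, and Camp and Ltf lay under the brightest bacterial control on all arrays. None of the 6 tested markers passed the test, and Csf3r was the 1 with an unadjusted p under 0.05. The pair A Trex1 KO heart, with the lowest neutrophil sum of all 6, had a Lcn2 signal of 150, close to the 149 of the pair C Trex1 KO heart. The part of neutrophils in the Lcn2 signal was not tested.

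Orm1, the acute-phase lipocalin alpha-1-acid glycoprotein, was near background. Its probe set read 31.7, 23.6 and 77.2 in Trex1 KO hearts, against 9.41, 5.13 and 3.38 in Trex1 WT hearts. Only the pair C Trex1 KO heart exceeded the brightest bacterial control, so no fold is given. The gene lies next to Orm3 in RefSeq gene order on chromosome 4, and the paralogs Orm2 and Orm3 stayed at 2.92 to 30.4 on all arrays.

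The metallothioneins Mt2 and Mt1, neighbours on chromosome 8 in RefSeq gene order, differed in the size of their difference. Mt2 read 1816, 2731 and 2410 in Trex1 KO hearts of pairs A, B and C, against 1060, 1606 and 1716 in Trex1 WT hearts. All 3 Trex1 KO hearts were above all 3 Trex1 WT hearts, and in both groups the pair A heart was the lowest. Mt2 averaged 2319 ± 464 in Trex1 KO hearts and 1461 ± 352 in Trex1 WT hearts (SD, n = 3 each), a log2 difference of 0.67 with a standard error of 0.20, or 1.59-fold. By pair it was 0.77 (A), 0.76 (B) and 0.49 (C), and 97.2% of all tested probe sets had a lower value.

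Mt1 had strong signals on every array, 10606, 12005 and 11860 in Trex1 KO hearts, against 8353, 10697 and 11058 in Trex1 WT hearts. The groups overlapped, since the Trex1 KO heart of pair A lay below the Trex1 WT hearts of pairs B and C. The log2 difference was 0.20 with a standard error of 0.12, and by pair 0.34 (A), 0.17 (B) and 0.10 (C). This probe set has a name ending in _s_at, which on this array type marks probes shared by several transcripts. A second, dim Mt1 probe set was not tested and read 66.1, 149 and 14.7 in Trex1 KO hearts, against 9.76, 56.7 and 31.6 in Trex1 WT hearts.

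Saa3, serum amyloid A3, is made outside the liver by macrophages and fat tissue during inflammation. It read 97.0, 211 and 128 in Trex1 KO hearts of pairs A, B and C, against 78.7, 183 and 118 in Trex1 WT hearts. The littermates lay close together and the pairs far apart, so that the groups overlapped widely. The log2 difference was 0.18 with a standard error of 0.34, and by pair 0.26 (A), 0.19 (B) and 0.10 (C).

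Hp encodes haptoglobin, which captures free haemoglobin. It read 112, 160 and 114 in Trex1 KO hearts, against 94.8, 95.6 and 27.6 in Trex1 WT hearts. The groups did not overlap, but the pair C Trex1 WT heart was below the brightest bacterial control and gave the largest pair difference, 1.57, against 0.21 and 0.65 in pairs A and B. The mean log2 difference was 0.81 with a standard error of 0.39.

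Cp encodes ceruloplasmin, a copper-carrying ferroxidase, and has 8 probe sets, all bright enough to test. Its brightest probe set read 4865, 5924 and 4084 in Trex1 KO hearts, against 3508, 4387 and 3649 in Trex1 WT hearts. Each Trex1 KO heart was above its littermate, but the pair B Trex1 WT heart was above the pair C Trex1 KO heart. The log2 difference was 0.35 with a standard error of 0.14. Over the 8 probe sets the difference was 0.12 to 1.03, above 0 for all, and 3 of the 8 had groups that did not overlap.

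The Cp probe sets disagreed in size. The largest difference, 1.03 with a standard error of 0.23, came from a probe set with signals of 1623, 1654 and 1038 in Trex1 KO hearts, against 678, 511 and 904 in Trex1 WT hearts. By pair its difference was 1.24 (A), 1.66 (B) and 0.20 (C), so it moved little in pair C. A dim Cp probe set, with signals of 330, 452 and 111 in Trex1 KO hearts and 186, 87.0 and 135 in Trex1 WT hearts, reversed in pair C, where its difference was -0.25. With the Actb ratio in the fit, the probe set at 1.03 and this dim one, at 0.90 without it, both gave 0.31. Most other Cp probe sets gave a larger difference in that fit, the brightest 0.48.

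**Figure D2:**
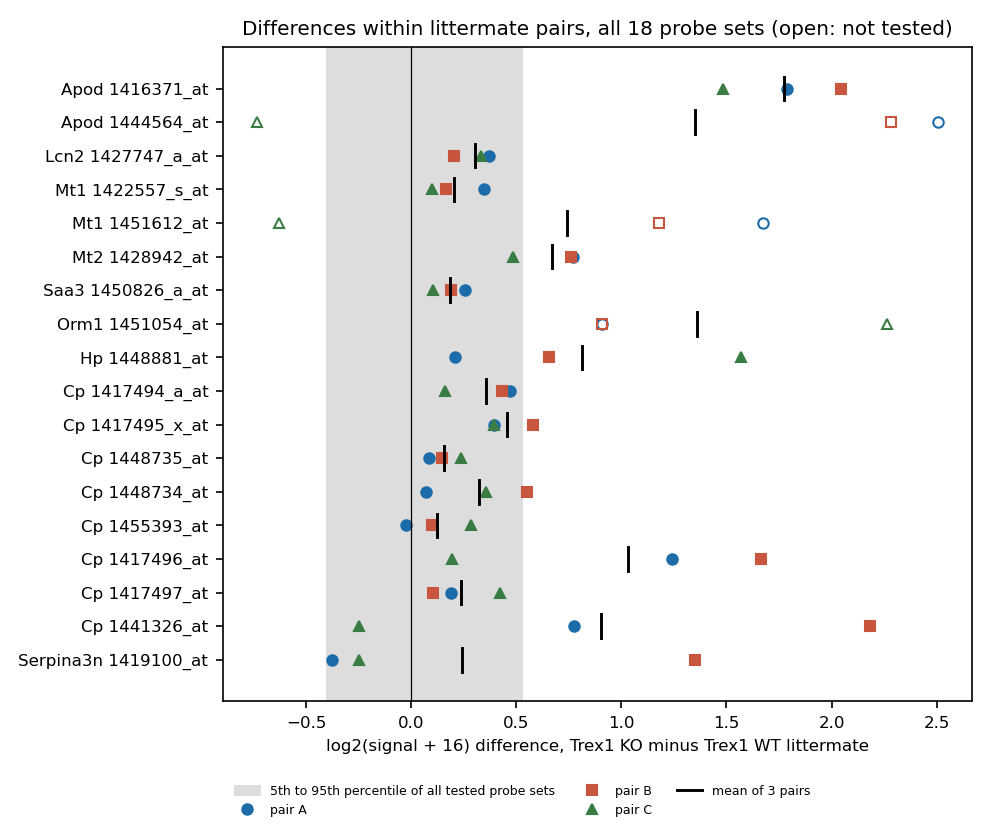
Difference in log2(signal + 16), Trex1 KO minus its Trex1 WT littermate, for all 18 probe sets of the 9 genes, with pairs A, B and C as separate points, the mean of 3 pairs as a bar, and open points for the 3 probe sets too dim to test. The grey band is the 5th to 95th percentile of the mean difference over all tested probe sets, -0.40 to 0.53; the Apod mean of 1.77 lies farthest to the right.

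Serpina3n encodes a secreted serine protease inhibitor related to human alpha-1-antichymotrypsin and is induced by cytokines and glucocorticoids in mice. It read 176, 625 and 17.4 in Trex1 KO hearts of pairs A, B and C, against 234, 235 and 23.7 in Trex1 WT hearts. Both hearts of pair C lay below the brightest bacterial control, and pairs A and B did not. The log2 difference was 0.24 with a standard error of 0.99, made up of -0.38 in pair A, 1.35 in pair B and -0.25 in pair C. Without the Trex1 KO heart of pair B the difference was -0.76. The gene lies beside Serpina3m in RefSeq gene order on chromosome 12, and whether related serpin transcripts add to this signal was not tested.

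Littermate pairs were compared with each other in the fit that holds genotype and pair, a comparison added after the values had been seen. An adjusted p under 0.05 in limma's F-test was given to 50 of 27022 probe sets, 0.185%. This test asks whether any of the 3 pairs differ, so its p-values do not belong to pair C alone. Values of pair C against the mean of pairs A and B are given as a description. Of the 15 tested member probe sets 1 passed, that of Serpina3n (limma F-test adjusted p = 0.0429). Its signal was lower in pair C than in the mean of pairs A and B, and pair A minus pair B was -0.87. As both pair C values lie under the brightest bacterial control, the size is a bound. With pair C set at that control, the joint log2 mean of pairs A and B was at least 3.46-fold higher, which does not hold for each pair by itself. This call was lost with a pseudocount of 64, and without the intensity trend 2 probe sets passed in all, none of them Serpina3n or a list gene named next. Apod missed the threshold (limma F-test adjusted p = 0.148), with pair C at -0.82 from the mean of pairs A and B, and pair A minus pair B at -0.28. Mt2 missed it as well (limma F-test adjusted p = 0.181), with pair C at 0.25 and pair A minus pair B at -0.59. At an unadjusted p under 0.05 the comparison took 8 of the 15 member probe sets, beside 12.1% of all tested probe sets. Pair C is a single litter and the only pair with high Xist, so litter and sex-linked transcripts cannot be told apart here. By gene symbol, the 50 calls include 5 probe sets of Y-linked genes and 2 of Xist. Probe sets without a single symbol were not placed, among them the call with the smallest p, at -7.21 in pair C, so these counts are minimums.

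Among 89 tested genes of the pathway lists described next, the brightest probe sets of 3 passed the same comparison, and all 3 were lower in pair C. Cebpd, a transcription factor that drives acute-phase genes, read 1141, 1682 and 595 in Trex1 KO hearts and 907, 1590 and 514 in Trex1 WT hearts (limma adjusted p = 0.00737). Sgk1, a kinase gene induced by glucocorticoids, read 3850, 5532 and 1859 in Trex1 KO hearts and 3470, 4550 and 2134 in Trex1 WT hearts (limma adjusted p = 0.0161). Ddit4, an inhibitor of mTORC1 signalling that is also induced by glucocorticoids, read 1916, 3171 and 755 in Trex1 KO hearts and 1301, 2172 and 876 in Trex1 WT hearts (limma adjusted p = 0.0285). Other probe sets of 2 further list genes passed as well. For the lipocalin Ptgds, prostaglandin D synthase, pair C was 1.02 above the mean of pairs A and B (limma F-test adjusted p = 0.0266). For Nfkbia, an inhibitor of NF-kB, pair C was at -0.62 and -0.49 (limma F-test adjusted p = 0.0285 and 0.0429). Of the 14 tested genes of the glucocorticoid list, 10 were lower in pair C than in the mean of pairs A and B. Cebpd, Sgk1 and Ddit4 were among them. No share over all tested probe sets is given for this count, and a gene in it need not be lower than each pair by itself. The remaining genes of the list, Zbtb16, Hif3a, Pdk4 and Nr3c1, were higher in pair C than in that mean, by 0.89, 0.46, 0.16 and 0.05. The median of the list was -0.41, against 0.04 over all tested probe sets.

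**Figure D3:**
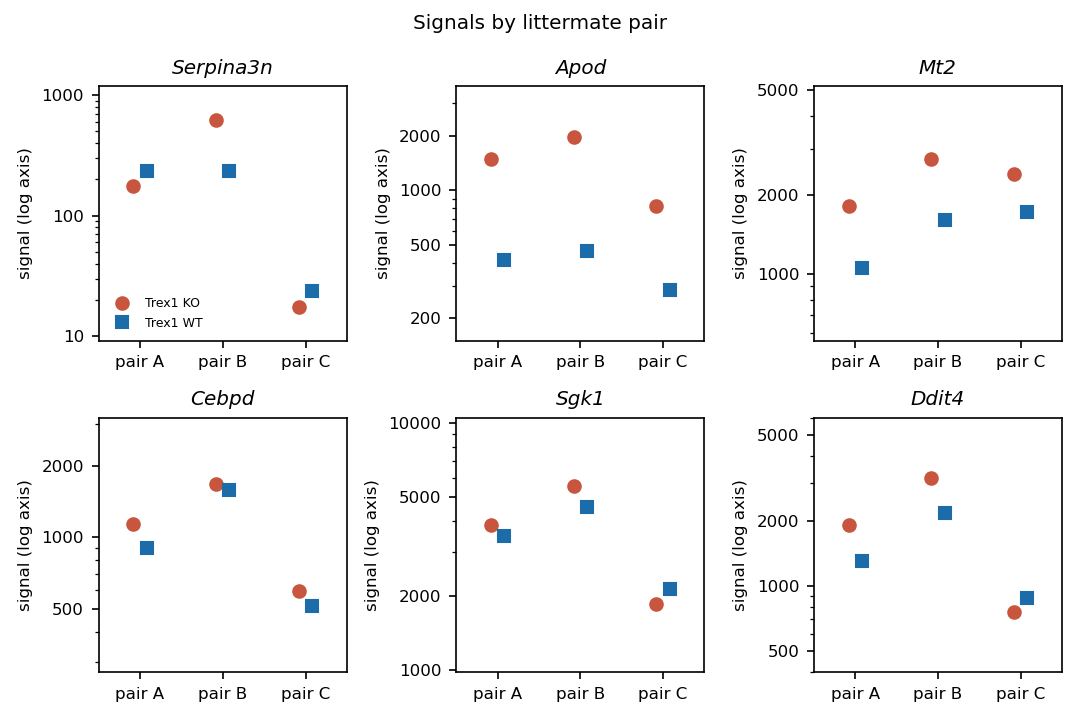
Signal (log axis) by littermate pair of Serpina3n, Apod, Mt2, Cebpd, Sgk1 and Ddit4, with Trex1 KO hearts as circles left of Trex1 WT hearts as squares, 1 value each. Both hearts of pair C are lowest for every gene shown except Mt2, where pair A is lowest, and the genotypes are apart in all 3 pairs for Apod and Mt2.

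The other genes of the pathways were followed through 7 lists that leave out the 9 genes. Of their 89 tested genes 0 were called higher and 0 lower by limma, and their median log2 difference was 0.02. At an unadjusted p under 0.05 there were 0 higher, and 3 lower, Il1r1, Cd163 and Tfrc, beside 3.47% higher and 1.97% lower of all tested probe sets. With the littermate pair as a block 0 were called higher and 1 lower, Cd163, beside 0.389% and 0.0592% of all tested probe sets.

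The list of other acute-phase and inflammation-induced secreted genes holds 25 genes, of which 21 were measured and 8 were bright enough to test. Their median was 0.07, and 0 of the 8 passed in either direction. The liver-made genes Saa1, Orm2, Orm3, Apcs and Fgb were among the 7 that never exceeded the brightest bacterial control. Serping1, the C1 inhibitor of complement, had the smallest p and averaged 7904 ± 658 in Trex1 KO hearts and 6599 ± 1424 in Trex1 WT hearts (SD, n = 3 each; log2 difference 0.28, limma adjusted p = 0.955). Steap4, a metalloreductase induced in inflamed fat, was at -0.31 (limma adjusted p = 0.955).

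Among 16 tested genes of IL-6, IL-1 and TNF signalling the median was 0.07 and 0 passed. Il1r1, the IL-1 receptor, read 116, 149 and 199 in Trex1 KO hearts and 236, 374 and 197 in Trex1 WT hearts (log2 difference -0.72, limma adjusted p = 0.842). Il1b, the cytokine gene itself, was at 0.43 (limma adjusted p = 0.955). Stat3 and Socs3, the transcription factor downstream of IL-6 and its feedback inhibitor, are named for their role and were at 0.04 and 0.20 (limma adjusted p = 0.988 and 0.968).

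Of the 19 tested zinc and copper handling genes 0 passed, with a median of -0.05. The zinc importers Slc39a10 and Slc39a1 had the smallest p and were at -0.24 and -0.23 (limma adjusted p = 0.955 for both). Mtf1, the factor that binds the metal response element marked above, is named for its role and read 586, 487 and 512 in Trex1 KO hearts and 454, 612 and 587 in Trex1 WT hearts (log2 difference -0.05, limma adjusted p = 0.988).

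Of the 16 tested iron, haem and haemoglobin handling genes 0 passed, with a median of -0.12. Cd163, the macrophage receptor for haptoglobin bound to haemoglobin, read 193, 209 and 153 in Trex1 KO hearts, against 479, 694 and 382 in Trex1 WT hearts. The groups did not overlap, and the log2 difference of -1.38 with a standard error of 0.23 fell just short (limma adjusted p = 0.0504, and 0.00855 with the pair as a block). Tfrc, the transferrin receptor, was at -0.67 (limma adjusted p = 0.776). Hp and its receptor Cd163 thus had differences of opposite sign, and Cd163 went against most of the macrophage markers. The summed signal of the 9 markers, Cd163 included, was 17553, 22488 and 18317 in Trex1 KO hearts and 16057, 21564 and 14216 in Trex1 WT hearts, higher in Trex1 KO in each pair. Fcgr1, an Fc receptor, was at 0.73 and C1qa, a complement gene, at 0.52 (limma adjusted p = 0.684 and 0.416, and 0.174 and 0.0597 with the pair as a block). Csf1r and Mrc1 were on the side of Cd163, at -0.15 and -0.07 (limma adjusted p = 0.961 and 0.984). The remaining macrophage markers were above 0.

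The remaining lists gave 0 calls in either direction. Of the 10 tested genes for other lipocalins, lipoproteins and lipocalin receptors, with a median of 0.07, Apoe had the smallest p (log2 difference 0.19, limma adjusted p = 0.955), followed by Slc22a17, a receptor for Lcn2, at -0.18 (limma adjusted p = 0.968). Bsg, a receptor for Apod named for its role, was at 0.06 (limma adjusted p = 0.977). Of the 14 tested glucocorticoid genes, with a median of 0.08, Pdk4 was at 0.36 and the receptor Nr3c1 at -0.15 (limma adjusted p = 0.955 for both). Of the 10 tested oxidative stress genes, with a median of -0.05, Gclm was at 0.29 and Srxn1 at 0.33 (limma adjusted p = 0.927 and 0.942).

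**Figure D4:**
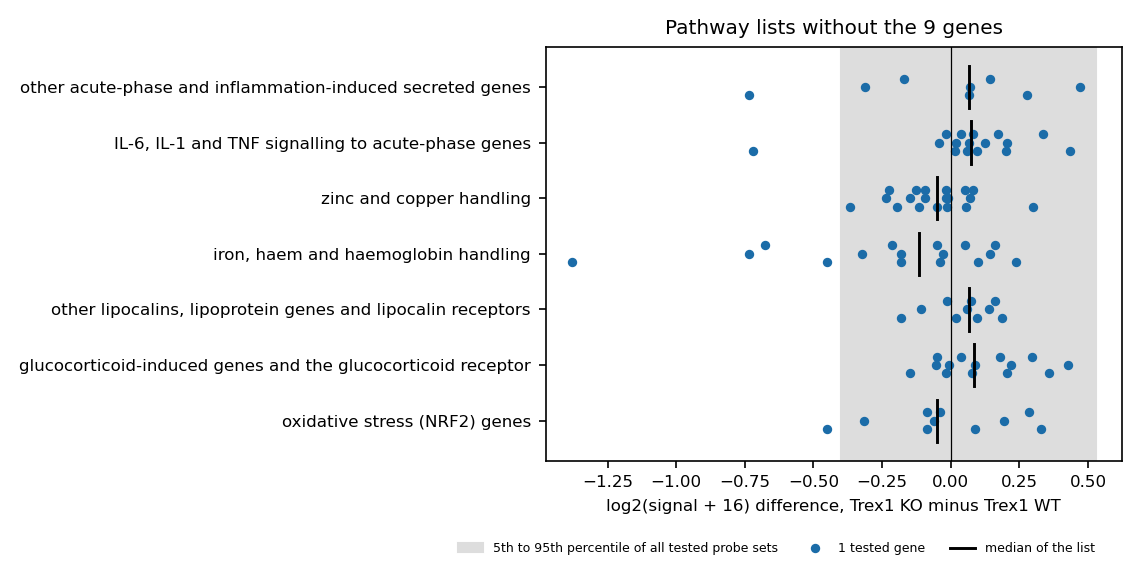
Difference in log2(signal + 16), Trex1 KO minus Trex1 WT, of each tested gene of 7 pathway lists without the 9 genes (points), with each list's median as a bar and the 5th to 95th percentile over all tested probe sets as a grey band. The medians lie between -0.12 and 0.08, and the point farthest left is Cd163 at -1.38.

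Hepatocyte markers were read because most acute-phase transcripts are made in liver. Their summed signal was 721, 1389 and 1313 in Trex1 KO hearts of pairs A, B and C and 445, 3090 and 851 in Trex1 WT hearts, higher in Trex1 KO in pairs A and C and lower in pair B. In the Trex1 WT heart of pair B albumin (Alb) read 477 and transthyretin (Ttr) 1483, the highest values of both. Apod, Lcn2, Saa3 and Cp also had their highest Trex1 WT value there, and Orm1, Mt1 and Mt2 did not. Hp and Serpina3n were almost equal in the Trex1 WT hearts of pairs B and A, at 95.6 and 94.8 for Hp and 235 and 234 for Serpina3n. Ahsg, fetuin A, read 97.0, 99.0 and 82.7 in Trex1 KO hearts and 30.0, 84.8 and 15.4 in Trex1 WT hearts (log2 difference 1.05, limma adjusted p = 0.890). Among adipocyte markers, Adipoq read 549 and Retn 332 in the pair C Trex1 KO heart, against at most 66.3 and 97.8 on the other 5 arrays, and Orm1 was also highest in that heart. Fabp4, which endothelium also expresses, was highest in the Trex1 WT heart of pair B, at 36622. It makes up most of the adipocyte sum, 36723 in that heart, so the sum is not a separate reading. The sums were 30573 to 35131 in Trex1 KO hearts and 29075 to 36723 in Trex1 WT hearts. Among 5 atrial markers, Nppa averaged 31458 ± 3917 in Trex1 KO hearts and 16165 ± 4540 in Trex1 WT hearts (SD, n = 3 each; limma adjusted p = 0.126, and 0.00886 with the pair as a block). The others did not share this: Myl7 read 145, 63.95 and 119 in Trex1 KO hearts and 77.1, 297 and 13.6 in Trex1 WT hearts, Myl4 was at 0.18, and Sln and Bmp10 lay under the brightest bacterial control. Whether the makeup of the dissected tissue has a part in any difference of the 9 genes was not tested.

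For each of the 8 tested genes, the 3 genes with the most similar profile over the 6 arrays were found among 12810 genes, by the root mean square difference of mean-centred log2 values. Those of Apod were Slfn8 at 0.26, Herc6 at 0.30 and Slfn1 at 0.32, where the standard deviation of Apod itself over the arrays was 0.98. Slfn8 averaged 428 in Trex1 KO hearts and 161 in Trex1 WT hearts, and Herc6, an ISG15 ligase in mice, averaged 595 in Trex1 KO hearts and 153 in Trex1 WT hearts. Slfn1 averaged 131 in Trex1 KO hearts and 24.0 in Trex1 WT hearts, the latter under the brightest bacterial control, 69.8. Those of Mt2 were Pth2 at 0.09, Ms4a6c at 0.10 and Sting1 at 0.11, with a standard deviation of 0.43 for Mt2, while Mt1 was the 219th closest gene at 0.28.

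The profile of Lcn2 was closest to Cd44 at 0.04, Ncf1 at 0.07 and Tent5a at 0.08. That of Saa3 was closest to Tnfaip8l2 at 0.07, Kif7 at 0.09 and Timp1 at 0.13, and Lcn2 ranked 44th for it. For Mt1 the closest were Cbfa2t3, Vcpkmt and Tcap, at 0.04 to 0.05. For Hp they were Tenm4, Dnajc22 and Paqr8, at 0.09 to 0.12, and for Cp Ddx27, Ccnd1 and Pes1, at 0.06 to 0.07. For Serpina3n, whose standard deviation was 1.53, they were Kdm5d at 0.70, Eomes at 0.79 and Uty at 0.80, of which Kdm5d and Uty are Y-linked. All 6 points come from the same arrays and pairs, and genes with a small spread find close profiles easily.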

How the data were processed

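The data are 6 Affymetrix arrays of mouse heart ventricle RNA. The deposited values are linear intensity signals that the authors derived in MAS5, going by the submitters' processing notes; the 2%-trimmed mean was 500.0 on each array, the lowest signal was 0.109, and no detection calls were used. Of 45101 probe sets 64 were controls. GEO's platform annotation gave 34945 a single gene symbol, 932 several and 9160 none, of which 34741 matched RefSeq by identifier.

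Signals became log2(signal + 16). Probe sets with a mean at or above the 40th percentile (a signal of 53.8) were tested, 27022 in all, with limma 3.58.1 in R 4.3.3 (lmFit, eBayes with trend, Benjamini-Hochberg adjustment), genotype alone being the factor. The method was checked on simulated data. The array number limits the precision, and p-values reflect only how far these animals differ.

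The pairs come from the series design. Deviations from the group means correlated at 0.147 to 0.192 within pairs and at -0.161 to 0.0101 otherwise, so the pair as a block is given where it changes a call.

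The genes and lists were chosen with earlier results of these data known. Named were every probe set of the 9 genes and the 3 closest profiles per tested gene. Each pathway list gave the genes past the threshold (at most 5) or else the 2 with the smallest p. Some list genes are said to be named for their role. Marker genes, and further list genes such as those of the pair comparison, were named outside these rules. A list gene is represented by its brightest probe set. Alternatives varied the pseudocount, filter, trend, normalization, pair block, Actb covariate and arrays left out.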

Additional observations from a re-analysis of the deposited data

How the results depend on the processing

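Of 255 alternative values for the 15 tested probe sets, 217 counted as unchanged, 27 moved by more than the replicate spread, 11 were Apod below the threshold, and 0 reversed a call. For Apod, unchanged means that the call was kept. For the others it means a shift smaller than the SD of their own pair differences, which can be wide. Serpina3n thus counted as unchanged at -0.65, without the Trex1 WT heart of pair C, against 0.24 as reported. Apod kept a difference of 1.50 to 2.19 over 18 settings and Mt2 0.46 to 0.84. Differences without a call crossed 0 for Serpina3n (-0.76 to 1.99), Saa3 (-0.09 to 0.46) and 1 Cp probe set (-0.08 to 0.64). Against 59 higher and 7 lower probe sets in all, the replicate block with littermate pairs gave 105 and 16, eBayes without trend 24 and 4, and the Actb covariate 18 and 1. Leaving out an array or a pair gave 23 to 85 higher and 0 to 12 lower, with 23 and 0 without pair A. Calls among the 15 were 1 as reported, 2 with the replicate block, and 0 with a pseudocount of 1, no filter, no trend, quantile normalization or the Actb covariate. They were 0 to 2 with arrays or pairs left out, 0 without pair A or B and 2 without pair C. Calls in the pathway and marker lists, 0 higher and 0 lower, became 1 higher with the block or quantile normalization (Nppa) or the Actb covariate (Gpm6a). They became 1 lower (Cd163) with a pseudocount of 64, the 20th percentile filter or the block, and 0 to 1 with arrays left out (1 without the Trex1 WT heart of pair C). Probe sets differing between pairs, 50, were 2 without trend. Serpina3n was among them with a pseudocount of 1 (43 calls) and not with 64 (57 calls) or without trend. The cause was not tested. Signals near the bacterial controls (Orm1, Hp, Serpina3n in pair C) limit what these values show.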
